A study of Mus musculus with 4 samples.

Results

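The 10 genes Fos, Fosb, Jun, Junb, Jund, Egr1, Atf3, Ier2, Klf2 and Klf6 encode nuclear factors of the immediate-early response and were followed in sorted cells labelled as macrophages of the liver. They were chosen by gene name out of 23337 gene names in the deposited tables. All 10 were found, each on a single row of every table, and all 10 passed the filter on low values (at least 1 TPM in at least 2 libraries). RNA had been sequenced from cells of Lyz2cre-RosaYFP reporter mice, male and female, aged 6 to 8 weeks. The lysozyme locus Lyz2 drives Cre in these mice, and Cre turns on a yellow fluorescent protein (YFP) at Rosa, so that YFP marks cells that have made Cre or descend from such cells. The YFP+ group holds 2 libraries and the YFP- group holds 2 libraries, and all 4 come from mice that carry both the Cre and the reporter. Titles start with M for 1 library per group and with FM for the other, without a statement of what these letters mean. The labels do not say whether libraries came from separate animals, so p-values do not measure a spread between animals. In the main test p-values and standard errors (SE) rest on a variance trend over all tested genes in these libraries. They do not rest on the spread of the single gene.

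Immediate-early genes are transcribed within minutes of a stimulus without new protein synthesis, mainly through kinase cascades that act on factors already bound at their promoters. Fos and Jun proteins pair through leucine zippers to form the transcription factor AP-1, and Atf3 is a related zipper protein. Egr1 and the Kruppel-like factors Klf2 and Klf6 bind GC-rich DNA through zinc fingers. In macrophages these genes respond to microbial products, growth factors and adhesion, and they are also known to be induced in many cell types while tissue is dissociated.

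The members were abundant in every library. Their values ran between 43.4 and 3664 TPM (transcripts per 1000000, a level corrected for gene length and scaled to the same sum in each library), and mean read coverage over a member lay between 63.7 and 11881. Coverage at 1 FPKM, the measure of depth in these files, was 4.81 in YFP+ M, 2.60 in YFP+ FM, 9.19 in YFP- M and 2.59 in YFP- FM. Read counts are not given, so depth in reads is unknown and no counting interval can be set. The libraries also differed in the number of gene names at 1 TPM or more. It was 10302 in YFP+ M and 7386 in YFP+ FM, against 12434 in YFP- M and 12829 in YFP- FM. They differed in makeup as well. The 9 Kupffer cell markers summed to 34386 and 33227 TPM in YFP+ M and FM, against 5971 and 11886 TPM in YFP- M and FM, with 5 of 9 called higher. The 10 microglia markers summed to 1263 and 121 TPM in YFP+ M and FM, against 21474 and 19138 TPM in YFP- M and FM, with 10 of 10 called lower. In both YFP- libraries the microglia markers thus summed above the Kupffer cell markers, which goes against the liver label of these libraries; in both YFP+ libraries the Kupffer cell markers summed higher. None of these 19 markers was listed at 0 in any library. The 10 endothelial markers summed to 249 and 113 TPM in YFP+ M and FM, against 1086 and 1363 TPM in YFP- M and FM, with 8 of 10 called lower. Neutrophil markers summed to 1379 and 6764 TPM in YFP+ M and FM, against 1857 and 3270 TPM in YFP- M and FM, with 1 of 7 called lower. Monocyte markers summed to 1200 and 2723 TPM in YFP+ M and FM, against 1811 and 1028 TPM in YFP- M and FM, with 4 of 6 tested called lower. Over all tested genes 0.522% were called higher and 39.5% lower. The part of these differences in makeup in the results below was not tested. In bulk samples fewer cells of a type and less RNA per cell cannot be told apart.

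Fos stood highest of the 10 in all 4 libraries, and Jun was the 1 member that passed the test between groups. Of the 10 members 0 were called higher and 1 was called lower in YFP+ libraries (limma on log2(TPM + 1), Benjamini-Hochberg adjustment over 12251 tested genes, threshold 0.05). At an unadjusted p under 0.05 the counts were again 0 and 1. Over all tested genes 0.522% were called higher and 39.5% lower. Among the 1119 tested genes at the members' level, as defined below, 4.83% were called higher and 8.13% lower. The single lower call among the members thus lies under the share of all genes and near that of genes at their level. The summed level of the 10 was 7478 TPM in YFP+ M and 8160.3 TPM in YFP+ FM, against 4610 TPM in YFP- M and 8014 TPM in YFP- FM. The summed level was thus lowest in YFP- M and close together in the other 3 libraries.

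**Figure D1:**
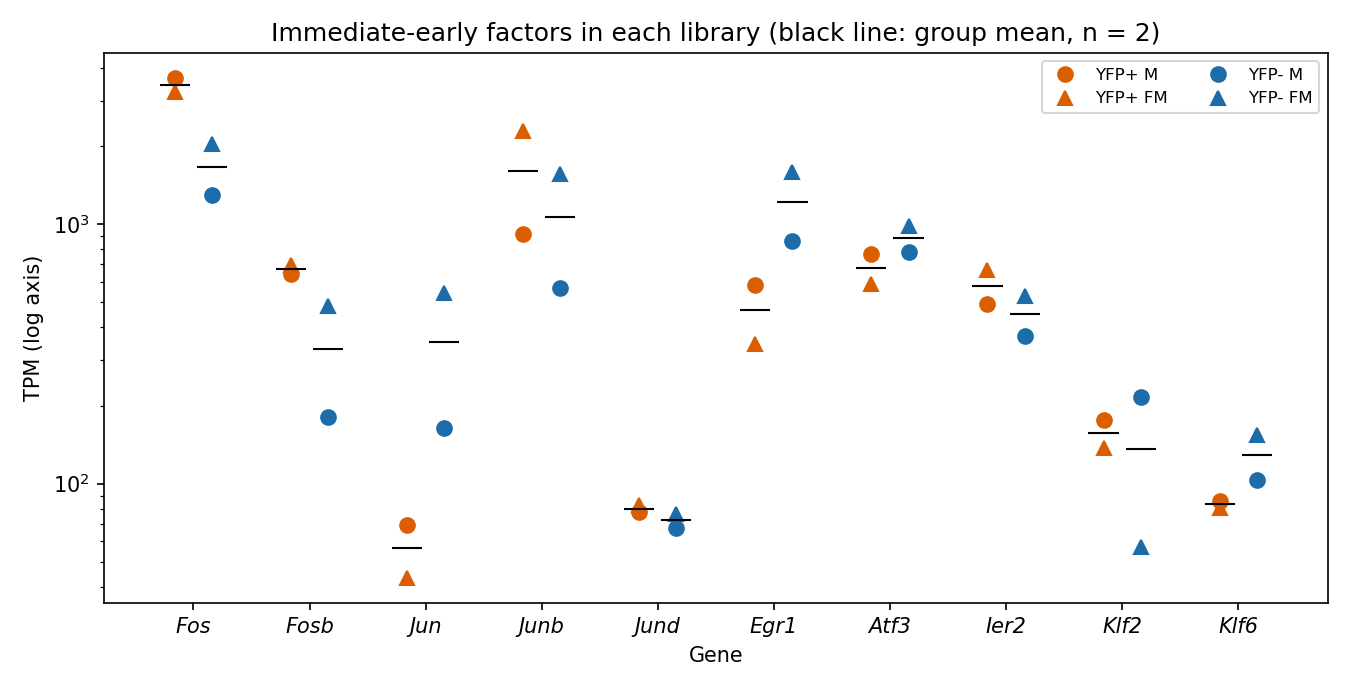
Level of each member in each library, in TPM on a log axis, with YFP+ libraries in orange left of YFP- libraries in blue, circles for M, triangles for FM and a black line for the mean of 2 libraries. Jun lies lower in both YFP+ libraries (69.2 and 43.4 TPM) than in both YFP- libraries (164 and 543 TPM), and Fos lies higher in both YFP+ libraries.

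The Fos family is described first, together with the sequences at the starts of Fos and Fosb, which are shown because these genes had the largest positive differences of the 10. Fos lies at chromosome 12, 85473901 to 85477270 on the plus strand, and Fosb at chromosome 7, 19302696 to 19310045 on the minus strand (GRCm38/mm10, as in the deposited tables). Promoter windows of 250 bases before to 50 bases after the RefSeq start (GRCm38.p6) were matched for 8 of the 10 members. No window was matched for Egr1 and Ier2, so the motif counts below leave both out. The windows are printed 5' to 3' on the strand of the gene at chr12:85473640-85473939 for Fos and chr7:19309996-19310295 for Fosb. Capitals mark matches on either strand to the TATA box TATAAA, the half-site TGACG of the cAMP response element, the AP-1 site TGANTCA, its spaced form TGANNTCA or the CArG box bound by serum response factor; a full cAMP response element would match both TGACG and TGANNTCA.
Fos: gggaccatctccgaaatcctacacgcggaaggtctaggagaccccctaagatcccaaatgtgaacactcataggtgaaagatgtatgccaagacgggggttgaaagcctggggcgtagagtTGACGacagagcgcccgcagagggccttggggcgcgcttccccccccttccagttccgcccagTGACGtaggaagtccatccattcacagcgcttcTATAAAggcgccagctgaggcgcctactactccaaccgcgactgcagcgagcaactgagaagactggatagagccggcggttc
Fosb: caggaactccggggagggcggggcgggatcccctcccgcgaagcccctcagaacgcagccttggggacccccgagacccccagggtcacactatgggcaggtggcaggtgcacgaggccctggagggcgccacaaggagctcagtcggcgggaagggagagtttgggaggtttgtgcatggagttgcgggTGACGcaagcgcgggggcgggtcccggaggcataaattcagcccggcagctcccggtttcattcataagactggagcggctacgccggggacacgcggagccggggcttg

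The Fos window holds TGACG with its first base 129 and 66 bases before the start and TATAAA 33 bases before it. The Fosb window holds TGACG 60 bases before the start, and TATAAA is not in it. The half-site TGACG was found in 5 of the 8 member windows and in 20.8% of all 32851 windows, and the letters TATAAA in 2 of 8 and in 13.6%. These 2 were Fos and Junb. In Junb the match ran from base 1 to base 6 counted from the start, so it was not upstream of it. The CArG box was found in 0 of 8 and in 1.63%, and TGANTCA in 0 of 8 and in 7.81%, within these windows alone. A match of letters is a description and not a binding site.

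Fos, the inducible AP-1 subunit that cannot pair with itself, had 3664 TPM in YFP+ M and 3224 TPM in YFP+ FM, against 1294 TPM in YFP- M and 2033 TPM in YFP- FM. Both YFP+ libraries lay above both YFP- libraries. The group means were 3444 ± 311 TPM in YFP+ and 1664 ± 522 TPM in YFP- libraries (SD, n = 2 each), a log2 fold change of 1.08 (SE 0.66) that did not pass the test (limma adjusted p = 0.159). Without the YFP- FM library the difference was 1.41 and passed (limma adjusted p = 0.0273), with the lone YFP- library then assumed to vary like the others. Under quantile normalization the difference shrank to 0.30 (limma adjusted p = 0.823), and under median-ratio scaling, which brings the typical gene to about the same level in all libraries, it was 3.35 (limma adjusted p = 0.151).

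Fosb, a paralog of Fos that also pairs with Jun proteins, had 645 TPM in YFP+ M and 698 TPM in YFP+ FM, against 180.0 TPM in YFP- M and 482 TPM in YFP- FM. Its groups did not overlap, and the YFP- libraries differed more from each other than the YFP+ libraries did. The log2 fold change was 1.18 (SE 0.81, limma adjusted p = 0.207). Under median-ratio scaling Fosb was 3.45 higher on the log2 scale and passed (limma adjusted p = 0.0235). Fosb took 15.0% and 17.8% of the summed Fos and Fosb TPM in YFP+ M and FM, against 12.2% and 19.2% in YFP- M and FM. The balance between both paralogs thus overlapped between groups.

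Of the Jun family, Jun was called and Junb and Jund were not. Jun, the founding AP-1 subunit, had 69.2 TPM in YFP+ M and 43.4 TPM in YFP+ FM, against 164 TPM in YFP- M and 543 TPM in YFP- FM. Both YFP+ libraries lay under both YFP- libraries, and the YFP- FM library was the highest by far. Jun fell in YFP+ libraries by 2.42 on the log2 scale (SE 0.93, limma adjusted p = 0.0289), a 5.36-fold lower level. The median of all tested genes lay at -1.73, so that Jun was 0.69 under the typical gene. Its call ended under quantile normalization (-1.53, limma adjusted p = 0.269), median-ratio scaling (-0.17, 0.881), FPKM used in the place of TPM (-1.87, 0.0607) and a block for title start (0.140), as well as without YFP+ FM (-2.09, 0.167) or YFP- FM (-1.56, 0.508). Of all genes, that block called 0.188% higher and 14.1% lower, and FPKM called 1.02% higher and 30.8% lower.

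Jun lies at chromosome 4, 95049036 to 95052222 on the minus strand. Its window at chr4:95052173-95052472 is printed with the same marks, for comparison with the Fos windows, since the difference of Jun had the other sign.
Jun: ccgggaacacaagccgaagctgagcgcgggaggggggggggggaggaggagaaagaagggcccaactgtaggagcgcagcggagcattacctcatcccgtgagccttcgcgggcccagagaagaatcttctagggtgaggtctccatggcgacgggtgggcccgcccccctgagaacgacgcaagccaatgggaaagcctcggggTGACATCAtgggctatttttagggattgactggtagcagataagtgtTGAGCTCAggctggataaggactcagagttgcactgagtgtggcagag

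The Jun window holds TGANNTCA 45 bases before the start and again from the third base after it, and holds neither TGACG nor TATAAA. TGANNTCA was found in 3 of the 8 member windows (Jun, Jund and Klf6) and in 14.1% of all windows.

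Junb, which can stand in for Jun in AP-1 and restrains some of its targets, was the most abundant Jun family member in all 4 libraries. It had 914 TPM in YFP+ M and 2292 TPM in YFP+ FM, against 568 TPM in YFP- M and 1569 TPM in YFP- FM. The groups overlapped, and in each group the FM library was the higher one. The log2 fold change was 0.62 (SE 0.72, limma adjusted p = 0.456), and it was -0.049 under quantile normalization and 2.89 under median-ratio scaling (limma adjusted p = 0.136). Jund, the family member that many cells make constitutively, ran over a narrow range. It had 77.6 TPM in YFP+ M and 82.4 TPM in YFP+ FM, against 67.8 TPM in YFP- M and 76.6 TPM in YFP- FM. Its groups did not overlap, but the gap was small, with a log2 fold change of 0.15 (SE 0.98, limma adjusted p = 0.898). Under quantile normalization Jund was 1.45 higher (limma adjusted p = 0.205), and under median-ratio scaling it was 2.39 higher and passed (limma adjusted p = 0.0242).

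Shares and ratios of TPM within a library do not change when the whole library is scaled by 1 factor. Quantile normalization is no such scaling and can change them. Under it the log2 fold changes were 0.30 for Fos and -1.53 for Jun, against 1.08 and -2.42 in the main test. Jun made up 6.53% and 1.80% of the summed Jun, Junb and Jund TPM in YFP+ M and FM, against 20.5% and 24.8% in YFP- M and FM. Junb made up 86.2% and 94.8% in YFP+ libraries, against 71.0% and 71.7% in YFP- libraries, and the share of Jund overlapped between groups. For each unit of Jun, Fos stood at 52.9 in YFP+ M and 74.2 in YFP+ FM, against 7.90 in YFP- M and 3.75 in YFP- FM. Fos to Egr1 was 6.26 and 9.32 in YFP+ libraries, against 1.5 and 1.28 in YFP- libraries. Fos to Junb overlapped, at 4.01 and 1.41 in YFP+ libraries and 2.28 and 1.30 in YFP- libraries. Of the 45 pairs of members 30 had ratios that did not overlap between groups, where 62.5% of all pairs of tested genes above 0 in every library had such ratios. That count is near the background. All 9 pairs with Jun and all 9 with Egr1 were among the 30, against 2 of 9 with Klf2 and 3 of 9 with Junb. With 2 libraries against 2, an exact two-sided permutation test of such a ratio cannot go below p = 0.33.

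**Figure D2:**
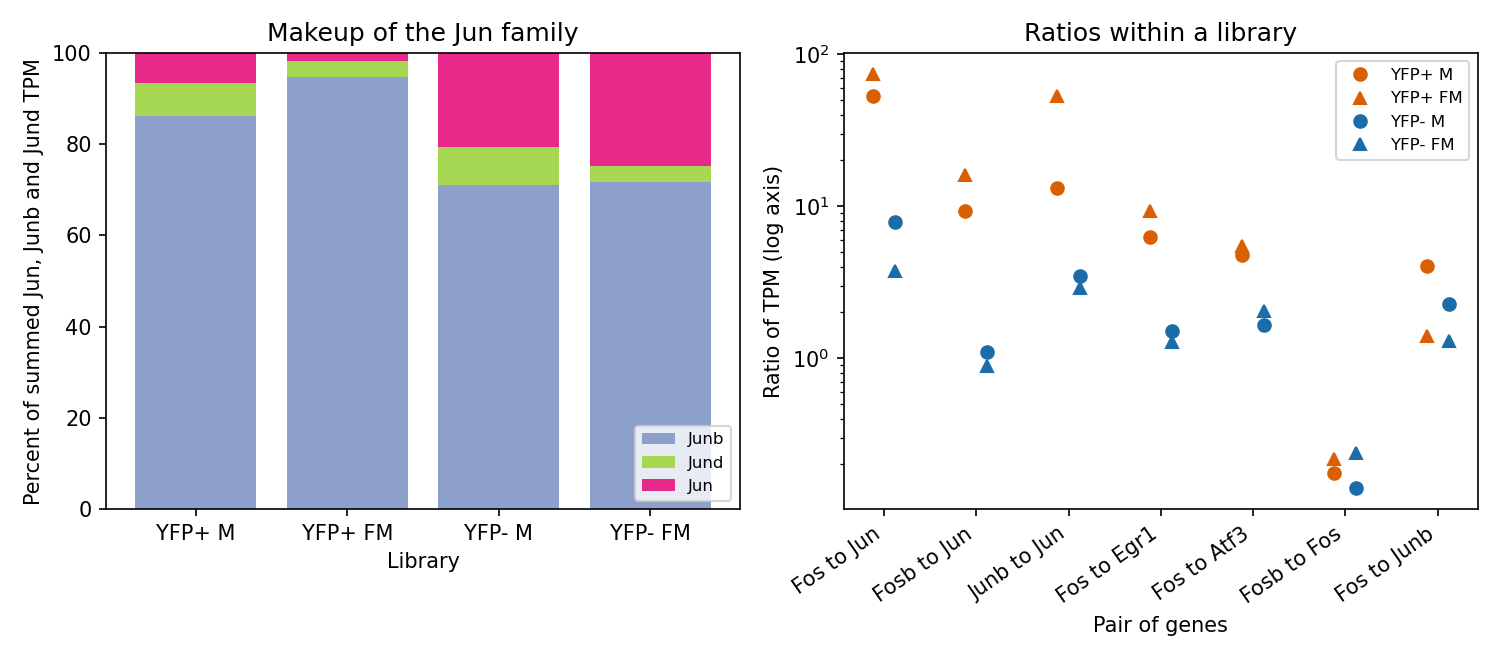
Left, percent of the summed Jun, Junb and Jund TPM taken by each gene in each library, and right, ratios of TPM between pairs of members in each library on a log axis (YFP+ orange and left, YFP- blue and right, circles M, triangles FM). Jun takes 6.53% and 1.80% in YFP+ libraries and 20.5% and 24.8% in YFP- libraries, and Fos to Jun lies higher in both YFP+ libraries.

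Egr1, Atf3 and Ier2 are the other classic early response genes of the set. Egr1, a zinc finger activator induced by growth factors and adhesion, had 585 TPM in YFP+ M and 346 TPM in YFP+ FM, against 862 TPM in YFP- M and 1584 TPM in YFP- FM. Both YFP+ libraries lay under both YFP- libraries, with a log2 fold change of -1.37 (SE 0.76) that did not pass (limma adjusted p = 0.122). By level it was the fifth of the members in YFP+ M and the sixth in YFP+ FM, against the second in both YFP- libraries. Without the YFP- M library the difference was -1.81 and passed narrowly (limma adjusted p = 0.0497), and under median-ratio scaling it was 0.90.

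Atf3, which limits Toll-like receptor induced cytokine genes in mouse macrophages, had 767 TPM in YFP+ M and 590.4 TPM in YFP+ FM, against 784 TPM in YFP- M and 988 TPM in YFP- FM. The M libraries were almost level, and the groups did not overlap only by that narrow gap. Its log2 fold change was -0.39 (SE 0.76, limma adjusted p = 0.661), with the sign turned under median-ratio scaling (1.88) and with FPKM (0.16). Ier2, a short nuclear protein of the early response, had 495 TPM in YFP+ M and 666 TPM in YFP+ FM, against 371 TPM in YFP- M and 527 TPM in YFP- FM. The groups overlapped, with a log2 fold change of 0.38 (SE 0.80, limma adjusted p = 0.686) that was 2.64 under median-ratio scaling (limma adjusted p = 0.0782).

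Neither Kruppel-like factor passed the test. Klf2, known for holding endothelial cells, T cells and myeloid cells in a quiet state, had 176 TPM in YFP+ M and 137 TPM in YFP+ FM, against 216 TPM in YFP- M and 56.8 TPM in YFP- FM. The YFP- libraries were the highest and the lowest of the 4, and both YFP+ libraries lay between them. Its log2 fold change was 0.48 (SE 0.92, limma adjusted p = 0.654), and without YFP- FM it was -0.47. It was 1.56 under quantile normalization (limma adjusted p = 0.329), and under median-ratio scaling it was 2.73 and passed (limma adjusted p = 0.0303). Coverage of Klf2 in YFP- FM was 63.7, the lowest of any member. The 7 listed T and NK cell markers with a value summed to 164 TPM in YFP+ M and 96.3 TPM in YFP+ FM. They summed to 1210 TPM in YFP- M and 404 TPM in YFP- FM. Of these markers 4 of 7 were called lower, against 39.5% of all tested genes, and none was at 0. Their part in Klf2 was not tested. Klf6, which promotes inflammatory gene expression in macrophages, had 85.8 TPM in YFP+ M and 80.8 TPM in YFP+ FM, against 103 TPM in YFP- M and 155 TPM in YFP- FM. Its groups did not overlap, with a log2 fold change of -0.60 (SE 0.95, limma adjusted p = 0.588), and the sign turned under quantile normalization (0.53) and median-ratio scaling (1.66).

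Position sets some of the members together. Jund (70697739 to 70700616), Klf2 (72319062 to 72321654), Ier2 (84661331 to 84662852) and Junb (84976909 to 84978748) all lie on chromosome 8, 4 of the 10 members within 14.281 Mb. Ier2 and Junb are 314.1 kb apart. Atf3 lies at chromosome 1, 191170297 to 191183333, and Klf6 at chromosome 13, 5861489 to 5870393. Ier2 and Junb had their higher level in the FM library of each group. Jund and, on chromosome 7, Fosb did the same, while Klf2 had its lower level in the FM library of each group. The part of position in these levels was not tested. The ratio of Ier2 to Junb was 0.541 and 0.291 in YFP+ M and FM, against 0.653 and 0.336 in YFP- M and FM. That ratio overlapped between groups.

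In all, 3 members had both YFP+ libraries above both YFP- libraries (Fos, Fosb and Jund), 4 had both under them (Jun, Egr1, Atf3 and Klf6) and 3 overlapped (Junb, Ier2 and Klf2). Among all tested genes 2.5% lay wholly above and 79.7% wholly under. Among the 1119 tested genes whose mean log2(TPM + 1) was at least that of Jund, the lowest member on that scale, 17.8% lay wholly above and 37.3% wholly under, so the members' counts lie nearer to those of genes at their level. Between libraries of the same title start, 9 of 10 members had the same sign in M and FM, with Klf2 as the exception. Fos differed by 1.5 in M and by 0.67 in FM libraries on the log2(TPM + 1) scale. Jun differed by -1.23 in M and by -3.61 in FM libraries. Egr1 differed by -0.56 in M and by -2.19 in FM libraries. The median of all tested genes was -1.01 in M and -2.48 in FM libraries, and 9 of 10 members lay above it in each, Jun again as the exception. Over all 4 libraries 9 of 10 lay above the median of all genes, and under quantile normalization 6 of 10 did.

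**Figure D3:**
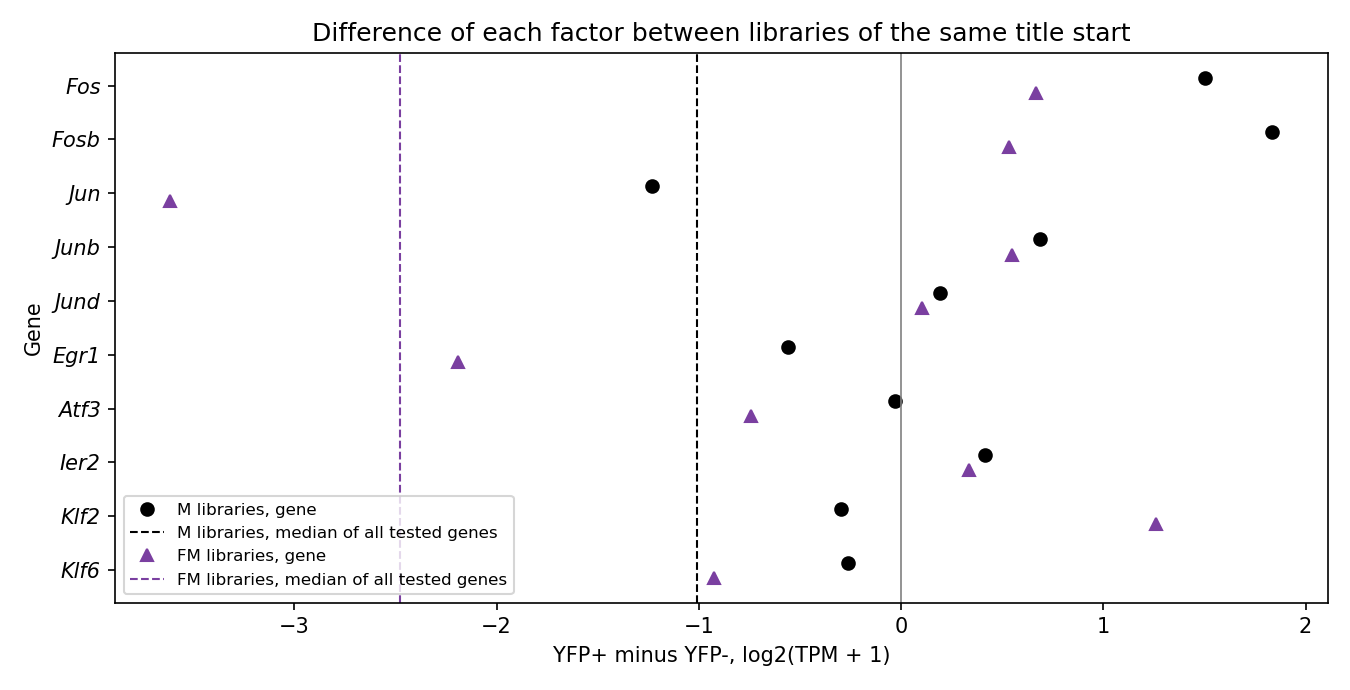
Difference of each member between the YFP+ and the YFP- library of one title start, on the log2(TPM + 1) scale, black circles for M and purple triangles for FM, with dashed lines at the median of all tested genes (-1.01 for M and -2.48 for FM). All members but Jun lie right of the line of their own title start.

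The median log2 fold change of the 10 members was 0.26, against -1.73 over all tested genes, of which 6.53% had a value above 0. The size of the fold change went with level over the whole table, and the part of level in the members' values was not tested. Among the 1119 genes at the members' level, as above, the median was -0.40, 38.3% had a value above 0, 4.83% were called higher and 8.13% lower. Within that set 9.47% of genes had a larger value than Fosb and 11.0% a larger one than Fos, while 94.1% had a larger one than Jun. Under quantile normalization the median was 0.41 for the members, 0.26 for genes at that level and -0.03 for all genes. Quantile normalization called 0 of 10 members, against 1.21% of all genes higher and 1.67% lower (1 member higher and 1 lower at an unadjusted p under 0.05 in limma). Median-ratio scaling called 3 of 10 higher (Fosb, Jund and Klf2) and 0 lower, against 6.17% of all genes higher and 6.44% lower, and put the members' median at 2.52, that of genes at their level at 1.85 and that of all genes at -0.11. At an unadjusted p under 0.05, limma gave 7 members higher and 0 lower under that scaling.

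**Figure D4:**
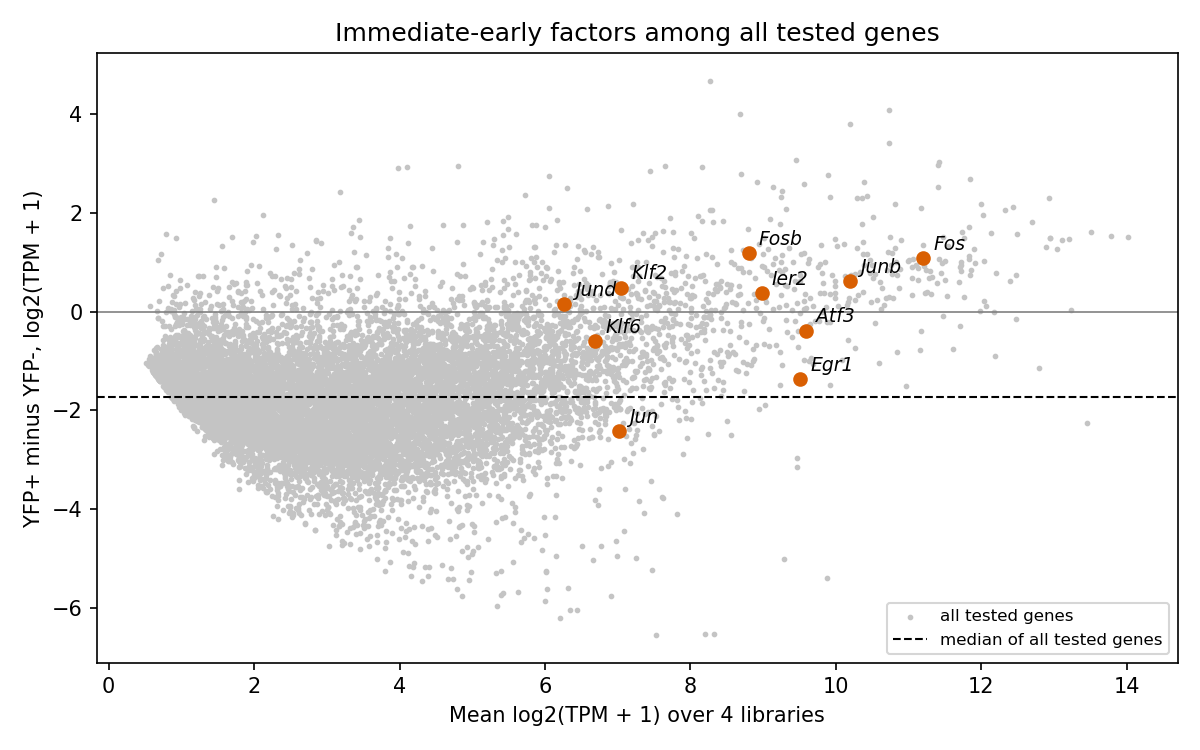
Log2 fold change (YFP+ minus YFP-) against mean level over 4 libraries, both on the log2(TPM + 1) scale, for all tested genes in grey and the 10 members in orange, with a dashed line at the median of all tested genes (-1.73). Fosb (1.18) and Fos (1.08) lie highest of the members and Jun (-2.42) lowest, and genes of higher level lie nearer to 0 than most others.

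By rank within a library, which no scaling alters, Fos was the 56th and 85th most abundant gene name in YFP+ M and FM, against the 134th and 50th in YFP- M and FM. Its rank thus overlapped between groups, unlike its TPM. Jun ranked 1210 and 1035 in YFP+ M and FM, against 784 and 282 in YFP- M and FM. Egr1 ranked 253 and 309 in YFP+ libraries, against 178 and 67 in YFP- libraries. Fosb ranked 244 and 216 in YFP+ libraries, against 721 and 317 in YFP- libraries, and Jund ranked 1104 and 708 in YFP+ libraries, against 1914 and 2296 in YFP- libraries. Jun, Egr1 and Atf3 therefore stood lower, and Fosb and Jund higher, in both YFP+ libraries than in both YFP- libraries by rank as well as by TPM. For the other members rank and TPM differed, or both overlapped. Klf6 ranked 1007 and 713 in YFP+ M and FM, against 1244 and 1098 in YFP- M and FM, and so stood higher by rank and lower by TPM in YFP+ libraries. Ier2 (279 and 223 in YFP+ libraries, against 368 and 287 in YFP- libraries) and Klf2 (577 and 515, against 603 and 3026) stood higher by rank in both YFP+ libraries while their TPM overlapped. Junb overlapped by both.

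Other immediate-early genes went both ways. Of 31 tested genes of a list of 35, 1 rose and 3 fell in YFP+ libraries (2 and 7 at an unadjusted p under 0.05 in limma), with a median log2 fold change of -1.22. Calls over all tested genes were 0.522% higher and 39.5% lower. Gadd45b, a stress-induced growth arrest gene, rose to 630.2 ± 63.3 TPM in YFP+ libraries, against 164 ± 92.2 TPM in YFP- libraries (2.06, limma adjusted p = 0.0399). Socs3, the feedback inhibitor of cytokine receptor signalling, fell to 32.0 ± 0.665 TPM in YFP+ libraries, against 257 ± 186 TPM in YFP- libraries (-2.75, limma adjusted p = 0.0184). The mRNA decay factors Zfp36l1 (-2.81, limma adjusted p = 0.0201) and Zfp36l2 (-2.88, limma adjusted p = 0.0153) fell as well. None of these 4 passed under quantile normalization, and Gadd45b alone passed under median-ratio scaling. The phosphatase gene Dusp1, named after its values were seen, had 6451 and 5428 TPM in YFP+ M and FM, against 1943 and 3100 TPM in YFP- M and FM (1.27, limma adjusted p = 0.0816). Median-ratio scaling called 9 of the 31 higher and 0 lower, against 6.17% of all genes higher and 6.44% lower. Quantile normalization called 1 higher, against 1.21% of all genes. That gene was Gadd45g (2.71, limma adjusted p = 0.0450), also named after its values were seen.

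The partners and upstream genes showed lower calls and no higher ones on the TPM scale, but higher calls under other scalings. Of 21 tested AP-1 partners and other zipper factors 0 rose and 4 fell (0 and 6 at an unadjusted p under 0.05 in limma; median log2 fold change -1.18). These were Atf2, at 2.44 ± 2.58 TPM in YFP+ and 18.1 ± 3.97 TPM in YFP- libraries, the stress sensor Atf6 (-2.74), and the repressors Bach1 (-2.15) and Bach2 (-2.78). Of 10 tested Kruppel-like factors outside the 10 members 0 rose and 1 fell (0 and 1 at an unadjusted p under 0.05 in limma; median -1.04). The one that fell was Klf12 (-1.63), at 0.0861 TPM in YFP+ M and listed at 0 in YFP+ FM, against 2.10 and 2.36 TPM in YFP- M and FM. Klf4 was at 142 ± 43.6 TPM in YFP+ and 99.9 ± 32.2 TPM in YFP- libraries (0.51, limma adjusted p = 0.638), and Klf10 at 23.3 ± 10.9 TPM in YFP+ and 65.4 ± 54.9 TPM in YFP- libraries (-1.22, limma adjusted p = 0.315).

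Of 31 tested kinases, phosphatases and genes of the serum response factor complex 0 rose and 10 fell (1 and 15 at an unadjusted p under 0.05 in limma; median log2 fold change -1.89). Among the largest were the ternary complex factor Elk3 (-3.67, limma adjusted p = 0.00837), the ribosomal S6 kinase gene Rps6ka1 (-2.99) and the stress kinase activator Map2k4 (-2.93). Of 14 heat shock genes often seen with tissue dissociation 0 rose and 5 fell (0 and 6 at an unadjusted p under 0.05 in limma; median -1.56). Hspb1 was at 6.31 ± 6.21 TPM in YFP+ and 171 ± 96.5 TPM in YFP- libraries, and Hsp90aa1 at 61.2 ± 32.0 TPM in YFP+ and 330.2 ± 14.6 TPM in YFP- libraries. Hsph1 (-3.20) and Hspb8 (-3.23) fell too. These shares stand beside 39.5% of all genes called lower. Under quantile normalization none of the lower calls in these lists held, and 2 partners (Batf2 and Jdp2, named after their values were seen) and 1 upstream gene were called higher. Median-ratio scaling called 4 partners, 1 Kruppel-like factor (Klf4) and 2 upstream genes higher, and no heat shock gene was called higher under either. Of all tested genes, quantile normalization called 1.21% higher and median-ratio scaling 6.17%. Of the lower calls, Elk3, Hspb1 and Hspb8 held under median-ratio scaling.

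Among the genes whose pattern over the 4 libraries came nearest to the median pattern of the 10 members were Ube2s, H2afx, Arf5 and Ssbp4, at distances of 0.227 to 0.281 on the centred log2(TPM + 1) scale among 6391 genes ranked. That median pattern was nearly flat, running between -0.08 in YFP- M and 0.24 in YFP- FM. Among the members Jund was nearest to it, at 0.247, and Jun farthest, at 2.64. Atf3 (0.498) and Ier2 (0.510) lay nearer to it than Klf2 (1.70) or Egr1 (1.52). The pattern was taken from these same members and was nearly flat, so a small distance marks a gene that varied little. These distances cannot test whether the members share a pattern.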

How the data were processed

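One gene table came with each of the 4 libraries. The authors deposited in it, per the file headers, mean read coverage, FPKM (fragments per kilobase per 1000000 mapped fragments) and TPM (scaled to a sum of 1000000). The submitters' processing notes name HISAT, with no version, and the builds GRCm38 and mm10 (table-making program, annotation and strandedness: not given in the sources used here). Groups follow the genotype label.

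Rows of one name were summed (166 of 23337 names, no member among them). Genes reaching 1 TPM in 2 or more libraries, 12251 in number, were put on the log2(TPM + 1) scale and tested with limma 3.58.1 under R 4.3.3, using a mean trend in the empirical Bayes step and Benjamini-Hochberg adjustment at 0.05. Prior degrees of freedom were infinite, so a p-value rests on the variance trend and not on the gene's own spread, and the scale understates changes of low genes. Depth was taken as the median of coverage over FPKM for genes with coverage over 5.

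Alternatives changed the pseudocount (0.1), the filter (none, 5 TPM), the scaling (quantile, median-ratio, FPKM), the trend, the title start block and the libraries; quantile normalization without the trend was chosen after seeing the data. Members and lists were chosen with earlier results of these data known. Named genes were all members, up to 4 called genes per list by size of change (at least 5 TPM in the higher group, or the 2 most abundant genes where fewer than 2 were called), and the 5 genes of nearest pattern; some genes that this rule takes are not reported here. Promoter windows are RefSeq's. Python 3.11.15 with pandas 2.3.3, NumPy 2.4.6 and matplotlib 3.10.9 served for the rest.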

Additional observations from a re-analysis of the deposited data

Results flagged for a closer look

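Klf2 was the 1 member of the 10 whose difference went opposite ways between libraries of the 2 title starts. On the log2(TPM + 1) scale the YFP+ library lay at -0.30 relative to the YFP- library of the M start and at 1.26 relative to that of the FM start. With 1 library per group in each start, this difference was not tested. Coverage of Klf2 was 571 in YFP+ M and 289 in YFP+ FM, against 1178 in YFP- M and 63.7 in YFP- FM.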

How the results depend on the processing

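Pseudocount 0.1, no filter, a filter at 5 TPM and no mean trend kept the sign and the side of the threshold of all 10 members. Counts over all genes, 64 higher and 4834 lower in YFP+ libraries, were 3078 lower with pseudocount 0.1 and 2902 lower with the filter at 5 TPM, where fewer genes were tested. They were 148 higher and 205 lower under quantile normalization, 756 and 789 under median-ratio scaling, and 115 higher with FPKM. With the title start as a replicate block they were 23 and 1726, and 752 and 650 with that block and quantile normalization. With no mean trend and quantile normalization, chosen after seeing the data, limma called 0 and 0 (2485 genes at an unadjusted p under 0.05). Apart from construction, the cause of these shifts was not tested.

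Members called higher were 3 under median-ratio scaling. Members called lower were 0 under quantile normalization (with or without the block or the trend), median-ratio scaling, FPKM and the block alone. Jun was -1.53 in the 3 settings with quantile normalization, -0.17 under median-ratio scaling, -1.87 with FPKM and -2.42 with the block, past the threshold in none. In the 3 quantile settings Junb was -0.049 and Klf6 0.53, and under median-ratio scaling Egr1 was 0.90, Atf3 1.88 and Klf6 1.66. With FPKM Atf3 was 0.16. Under median-ratio scaling Fosb (3.45), Jund (2.39) and Klf2 (2.73) passed. The block changed no other call of a member. The starts were not taken to pair libraries in the main test, since the meaning of their letters is not given. Deviations of the M libraries from their group means had a correlation across genes of -0.01. With so few libraries per group this value cannot show whether libraries are paired.

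Leaving out 1 library gave 14 to 105 higher and 865 to 8273 lower genes, 0 to 1 members higher and 0 to 2 lower. Log2 fold changes then ran from 0.76 to 1.41 for Fos, 0.48 to 1.89 for Fosb, -3.28 to -1.56 for Jun, -0.12 to 1.35 for Junb, 0.06 to 0.24 for Jund, -1.81 to -0.94 for Egr1, -0.58 to -0.20 for Atf3, 0.12 to 0.63 for Ier2, -0.47 to 1.44 for Klf2 and -0.89 to -0.30 for Klf6.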
